A study of Mus musculus with 2 samples.

Results

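Cdkn1a, Mdm2, Trp53inp1, Bbc3, Bax, Ccng1, Phlda3, Sesn2 and Zmat3 are induced by the tumour suppressor p53. These 9 genes were taken by symbol from the deposited gene table, which lists 17219 genes, and each had a fold change in both comparisons of that table. p53 is a transcription factor that is held low by the ubiquitin ligase MDM2 and is stabilised when DNA is damaged or ribosome assembly, nutrient supply or replication fails. It binds a pair of adjoining decamers in DNA, and its targets arrest the cell cycle, open mitochondria for apoptosis, slow protein synthesis or feed back on p53 itself. In the gut epithelium p53 is best known for the arrest and death of crypt cells after irradiation, while Cdkn1a is also transcribed in differentiating villus cells without p53.

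The study compared F4KO with WT mouse intestinal epithelium in culture. The F4KO genotype joins FABP4fl/fl to villin-Cre, whose promoter drives the recombinase in intestinal epithelial cells, and the genotype label calls it a FABP4 knockdown. The WT genotype is FABP4fl/fl, so that both carry the loxP-flanked allele. Crypts were grown in Matrigel as organoids, which are small cultured epithelial buds, and harvested on day 6, with 1 library per genotype. The tables hold a second comparison, F4KO with WT libraries that the headers call Epi. The labels describe no such libraries, so their source is not given here, and they are called Epi throughout.

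The deposited tables give a log2 fold change, taken as F4KO over WT because the headers name WT first and F4KO second, and a false discovery rate (FDR) computed over all genes. With 1 library per genotype that FDR compares 2 libraries and covers counting error only, so nothing below is a test of genotype. A gene was called higher or lower at a deposited FDR of 0.001 or less. The read number of each of the 9 genes in each library was worked out from its deposited p-value, searched near its deposited fold change. Ratios of reads carry an exact 95% counting interval after division by the ratio of library totals. Gene positions are those of RefSeq on GRCm38.p6. F4KO had 0.813 times the total of WT in Epi and 0.992 times in organoids, as fitted to the deposited p-values.

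Several facts of the libraries stand beside every value below. FABP4 itself had 4 reads in F4KO Epi and 1 in WT Epi, and 0 reads in F4KO organoids and 1 in WT organoids, too few to check the labels. In the authors' deposited table the median log2 fold change of all genes was 0.38 in Epi and 0 in organoids, so Epi values are also given relative to that median. The organoid libraries stood apart at Y-linked genes: in the authors' deposited table Eif2s3y differed by 9.53, Ddx3y by 8.24 and Kdm5d by 8.11 on the log2 scale, against -0.02, 0.57 and 0.30 in Epi. In organoids, the sex of the source and the genotype cannot be told apart. In Epi several marker lists moved as well. All 6 enterocyte markers were lower with a median of -0.95 in the authors' deposited table, 2 of 4 stem cell markers, among them Olfm4, were higher and none lower, and all 4 Paneth cell markers were higher. Of 7 fibroblast and muscle markers 6 were higher, with 257 reads in F4KO and 33 in WT over the list. Of 3 red cell markers 2 were lower, with 96 reads in F4KO and 773 in WT, and leukocyte markers had 4670 reads in F4KO and 5722 in WT over the 7 of 10 with recovered reads, a ratio of 1.004 after the library totals, with none of the 10 called higher and 2 called lower. In organoids 4 of 6 enterocyte markers were higher and 1 lower, all 4 enteroendocrine markers were higher, and 2 of 4 goblet cell and 2 of 4 Paneth cell markers were higher with none lower. There 3 fibroblast and muscle markers had recovered reads, 6 in F4KO and 6 in WT, and 7 leukocyte markers had 42 in F4KO and 54 in WT. The part of these differences in the results was not tested. In these bulk libraries fewer cells of a type and less RNA per cell cannot be told apart.

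Transcription start windows of the members are shown first, because the only 3 calls among the 9 genes fall on Cdkn1a, Ccng1 and Bax. RefSeq promoter windows on GRCm38.p6, from 250 bases before to 50 bases after a start, were held for 7 of the 9 genes in 10 windows. The motif searched was the p53 half-site consensus, a decamer that is its own reverse complement, so that one search covers both strands. A pair was 2 adjoining half-sites over 20 bases with at most 1 mismatch, a limit chosen after the windows had been seen. Capitals mark half-sites and pairs, and each sequence runs 5′ to 3′ along the strand of its gene.
Cdkn1a upstream start, chr17:29090729-29091028, plus strand: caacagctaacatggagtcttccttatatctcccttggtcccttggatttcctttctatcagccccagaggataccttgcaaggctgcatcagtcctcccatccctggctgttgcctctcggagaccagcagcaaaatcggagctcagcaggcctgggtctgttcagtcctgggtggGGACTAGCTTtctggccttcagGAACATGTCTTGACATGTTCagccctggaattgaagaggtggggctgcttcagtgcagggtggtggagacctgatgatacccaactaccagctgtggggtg
Cdkn1a downstream start, chr17:29093519-29093818, plus strand: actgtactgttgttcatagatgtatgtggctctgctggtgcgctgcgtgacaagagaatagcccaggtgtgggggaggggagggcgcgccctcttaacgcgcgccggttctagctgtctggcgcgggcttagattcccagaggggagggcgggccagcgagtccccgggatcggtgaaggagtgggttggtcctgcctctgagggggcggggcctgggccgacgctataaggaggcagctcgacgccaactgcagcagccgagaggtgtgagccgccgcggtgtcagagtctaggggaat
Ccng1, chr11:40755237-40755536, minus strand: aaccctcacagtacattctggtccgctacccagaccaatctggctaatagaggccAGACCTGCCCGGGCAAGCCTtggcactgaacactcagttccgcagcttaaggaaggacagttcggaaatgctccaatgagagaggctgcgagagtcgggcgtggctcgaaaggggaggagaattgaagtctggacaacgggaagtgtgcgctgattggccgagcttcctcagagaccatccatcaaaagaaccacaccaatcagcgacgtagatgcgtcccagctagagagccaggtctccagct
Bax, chr7:45466849-45467148, minus strand: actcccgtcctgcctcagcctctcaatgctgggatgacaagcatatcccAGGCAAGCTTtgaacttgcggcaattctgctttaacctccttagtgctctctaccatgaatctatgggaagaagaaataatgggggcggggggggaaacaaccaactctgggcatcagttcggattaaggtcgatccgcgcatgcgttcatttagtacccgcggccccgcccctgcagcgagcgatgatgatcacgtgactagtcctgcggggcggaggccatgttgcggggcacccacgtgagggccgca

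A pair was present in 29 of 32851 windows, 0.0883% of them, and 2 of the 29 belonged to members. In the upstream Cdkn1a window it was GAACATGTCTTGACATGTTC, beginning at position -51 from the start, with a separate half-site GGACTAGCTT before it. In the Ccng1 window it was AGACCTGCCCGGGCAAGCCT, beginning at position -195. At least 1 half-site was present in 2745 windows, 8.36% of them, a count that takes in windows with a pair. The Bax window held AGGCAAGCTT at position -201, and the Mdm2 window at chr10:117710709-117711008 on the minus strand held GAACTTGCCT at position -186. The downstream Cdkn1a window, the 3 Bbc3 windows and those of Phlda3 and Sesn2 held no half-site. A match describes letters only, and p53 elements known in introns, such as that of Mdm2, lie outside these windows.

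In Epi, 2 of the 9 genes were called, against 38.5% of all genes with a fold change. Bax was higher, as were 30.6% of all genes, and Cdkn1a was lower, as were 7.92%. In organoids 1 of the 9 was called, against 7.79% of all genes. It was Ccng1, which was lower, as were 4.7% of all genes, while none of the 9 was higher, against 3.09%. The share of the 9 called was 22.2% in Epi and 11.1% in organoids. Counts this small are not read as a departure from the background in either. The members did not share a direction in Epi or in organoids. None of the 9 also reached a log2 fold change of 1, which 12% of all genes did in Epi and 0.347% in organoids. A log2 fold change of 0.5 was reached by the 2 called in Epi, against 25.5% of all genes, and by none in organoids, against 1.75%. At a looser FDR of 0.05, 4 of the 9 passed in Epi, against 53.6% of all genes, and 4 in organoids, against 17.7%. In the authors' deposited table the median log2 fold change of the 9 was 0.12 in Epi, which is -0.26 relative to the median of all genes there, and -0.03 in organoids. Relative to the median of all genes, the counting interval of 5 members lay below it, 1 above it and 3 across it in Epi. In organoids 2 lay below, 2 above and 5 across.

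**Figure D1:**
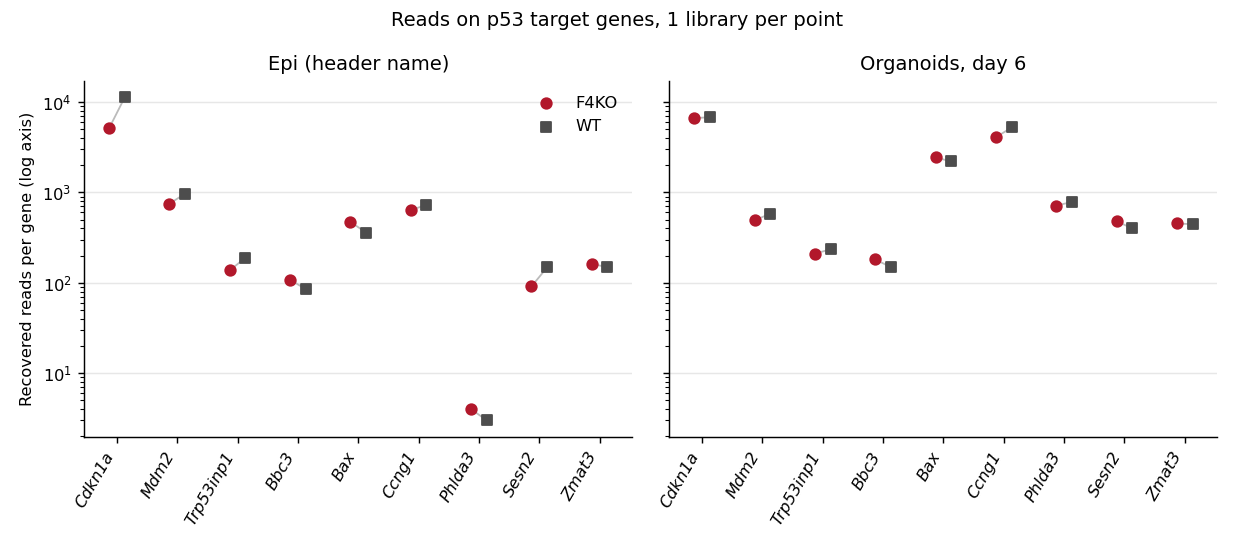
Recovered reads per gene (log axis) for the 9 p53 target genes, with F4KO as circles and WT as squares, 1 library per point, Epi on the left and day 6 organoids on the right. Cdkn1a had the most reads in every library, and Phlda3 had 4 reads in F4KO Epi and 3 in WT Epi, against 716 in F4KO organoids and 782 in WT organoids.

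The make-up of the reads on these genes differed between Epi and organoids in both genotypes. Cdkn1a held 68.5% of the reads on the 9 genes in F4KO Epi and 81.1% in WT Epi, against 42.3% in F4KO organoids and 40.5% in WT organoids. Ccng1 held 8.52% in F4KO Epi and 5.21% in WT Epi, against 26.0% in F4KO organoids and 31.1% in WT organoids. Bax held 6.29% in F4KO Epi and 2.57% in WT Epi, against 15.6% in F4KO organoids and 13.1% in WT organoids. Mdm2 went the other way, with 9.99% in F4KO Epi and 6.96% in WT Epi, against 3.13% in F4KO organoids and 3.46% in WT organoids. These shares are of reads and not per length, so they do not order genes within a library. A share also depends on the reads of the other members, of which Cdkn1a had the most. It therefore does not give the direction of a gene between libraries. The Mdm2 share was the higher in F4KO Epi, while its ratio of F4KO to WT there was 0.949 (0.862 to 1.04).

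Cdkn1a (chr17:29090979-29100722, plus strand) encodes p21, which binds cyclin-dependent kinases and arrests the cycle. It had 5136 reads in F4KO Epi and 11313 in WT Epi, and 6613 in F4KO organoids and 6814 in WT organoids. In raw reads F4KO was far below WT in Epi and close to it in organoids. The ratio of F4KO to WT was 0.559 in Epi (95% counting interval 0.540 to 0.577) and 0.978 in organoids (0.946 to 1.01). The authors' deposited table gives a log2 fold change of -0.84 with an FDR of 8.53e-277 in Epi and of -0.03 with an FDR of 0.461 in organoids. Relative to the median of all Epi genes the change was -1.22, and 6.75% of genes had a lower fold change. Enterocyte markers were lower in the same library (above), and whether the Cdkn1a value rests on them was not tested.

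The transcript table divides Cdkn1a between 2 RefSeq transcripts whose starts lie 2790 bases apart. NM_001111099.2 begins at chr17:29090979, next to the printed pair, and NM_007669.5 begins at chr17:29093769. In organoids NM_001111099.2 had 193 reads in F4KO, 2.92% of the reads of the gene, and 502 in WT, 7.37% of them. NM_007669.5 had 6419 reads in F4KO organoids and 6311 in WT organoids. The upstream transcript was lower in F4KO organoids, with a ratio of 0.388 (0.327 to 0.458), while the downstream one had a ratio of 1.03 (0.990 to 1.06). The authors' deposited table gives an FDR of 1.02e-30 for the upstream and 0.253 for the downstream transcript. In Epi all reads stood on NM_007669.5, and the upstream transcript had no fold change. The transcript models share the second exon and part of the third and differ at the 3′ end too, in GENCODE vM21, so the division of reads rests on the estimation by the authors, a step not given in the sources used here. Of transcripts of genes with several, 46.7% were called in Epi and 37% in organoids. AC167363.2, a provisional gene model on the other strand, shares 273 exon bases with Cdkn1a, and the use of strand in counting was a point not given in the sources used here.

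**Figure D2:**
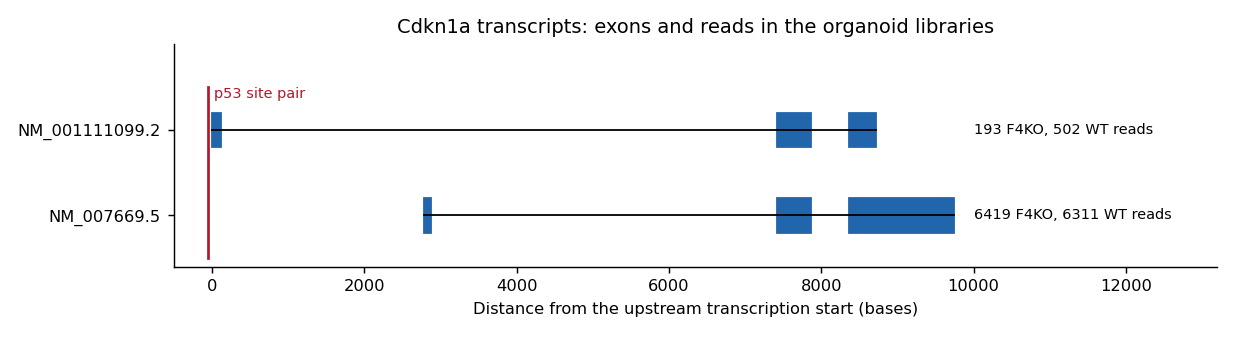
Exons (boxes) of both Cdkn1a transcripts by distance in bases from the upstream start, with the reads of each organoid library on the right and a vertical line at the p53 site pair. The pair begins at position -51 from the upstream start, whose transcript had 193 reads in F4KO and 502 in WT.

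Ccng1 (chr11:40748552-40755309, minus strand) encodes cyclin G1, which recruits phosphatase 2A to MDM2 and so feeds back on p53. It had 639 reads in F4KO Epi and 726 in WT Epi, and 4067 reads in F4KO organoids and 5228 in WT organoids. The F4KO library was the lower of the pair in raw reads in both, but after the library totals the Epi pair did not part beyond counting error. The ratio was 1.08 in Epi (0.972 to 1.21) and 0.784 in organoids (0.753 to 0.817). The authors' deposited table gives a log2 fold change of 0.12 with an FDR of 0.220 in Epi, and of -0.35 with an FDR of 2.53e-29 in organoids. Relative to the Epi median the sign turned, to -0.26. The organoid change is small in size, and 18.7% of genes had a lower fold change there. Only 1 transcript of Ccng1, NM_009831.2, was listed.

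Mdm2 (chr10:117688875-117710758, minus strand) encodes the ligase that ubiquitinates p53. It had 749 reads in F4KO Epi and 971 in WT Epi, and 490 reads in F4KO organoids and 582 in WT organoids. The fold changes in the authors' deposited table were -0.09 (FDR 0.391) in Epi and -0.25 (FDR 0.0436) in organoids, neither past the limit. Relative to the median of all genes the Epi value was -0.47 on the log2 scale, and its counting interval lay below that median. By transcript, its reads were divided differently in the genotypes. NM_010786.4 had 137 reads in F4KO Epi and 559 in WT Epi, and 262 in F4KO organoids and 515 in WT organoids. NM_001288586.2 had 332 reads in F4KO Epi and 169 in WT Epi, and 130 in F4KO organoids and 65 in WT organoids. The first was thus lower and the second higher in F4KO in both comparisons. The ratio of NM_010786.4 was 0.302 in Epi (0.248 to 0.364) and 0.513 in organoids (0.440 to 0.596), and that of NM_001288586.2 was 2.42 in Epi and 2.02 in organoids (1.49 to 2.76). For NM_001288586.2 the authors' deposited table gives an FDR of 4.90e-21 in Epi and 9.22e-06 in organoids. A predicted model, XM_030244938.1, had 228 reads in F4KO Epi and 209 in WT Epi, and 85 in F4KO organoids and 0 in WT organoids. Both curated transcripts match 1 GENCODE transcript and start, chr10:117710758 on the minus strand. How reads were divided between them is therefore uncertain, and the counting intervals do not cover that division.

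Trp53inp1 (chr4:11156441-11174379, plus strand) encodes a nuclear protein that stimulates p53-dependent death and autophagy. It had 137 reads in F4KO Epi and 190 in WT Epi, and 210 reads in F4KO organoids and 235 in WT organoids. Its ratio of 0.887 in Epi (0.707 to 1.11) and 0.901 in organoids (0.744 to 1.09) did not leave counting error around 1 in either. Relative to the median of all genes the Epi value was -0.56 on the log2 scale, and its counting interval lay below that median. By transcript the organoid libraries parted in opposite directions. NM_001199105.2 had 141 reads in F4KO organoids and 0 in WT organoids, and NM_021897.4 had 68 in F4KO and 235 in WT. In Epi all reads stood on NM_001199105.2, with 137 in F4KO and 190 in WT. Older versions of both names (NM_001199105.1 and NM_021897.3) match the same GENCODE transcript and start, so how reads were divided between them is uncertain.

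**Figure D3:**
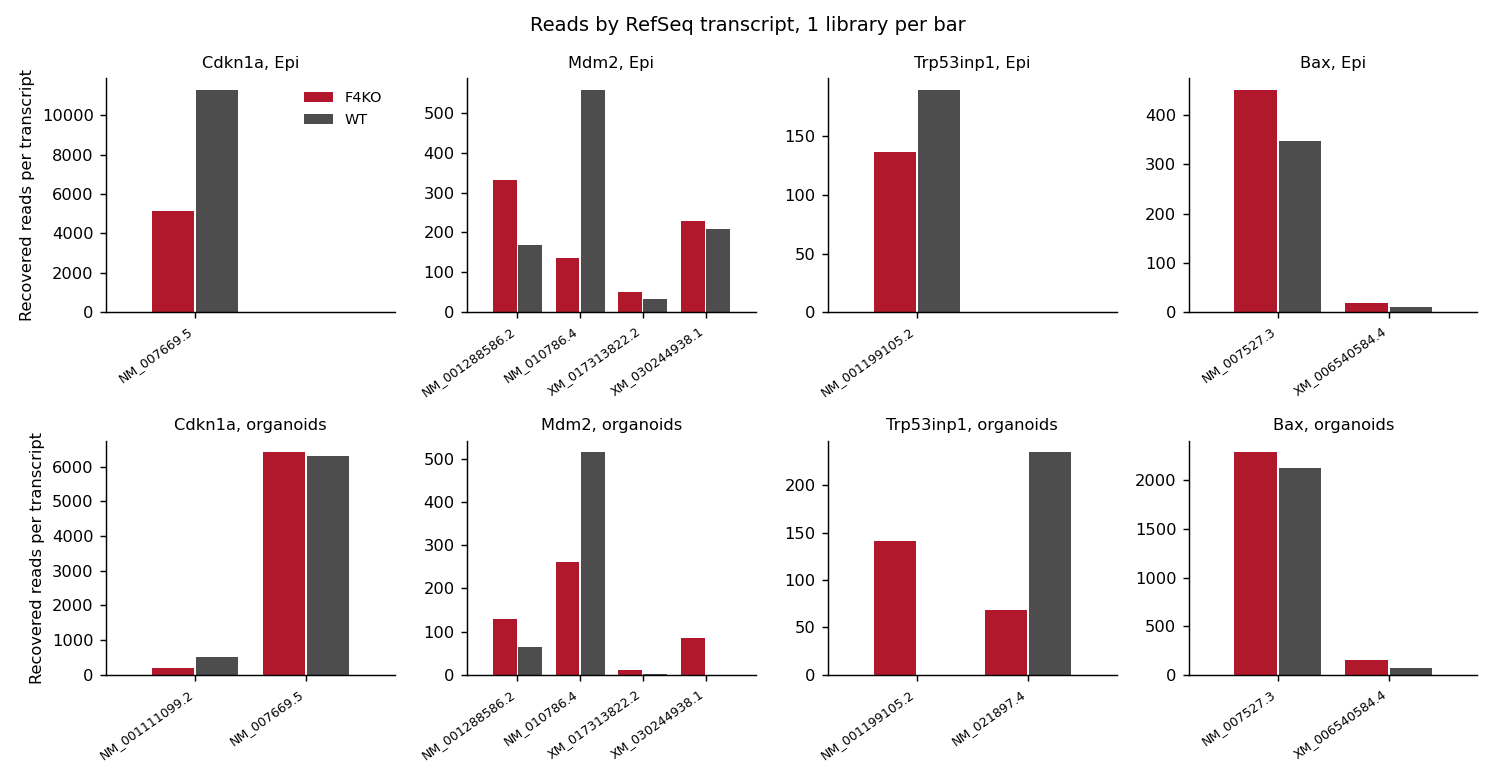
Recovered reads per RefSeq transcript of Cdkn1a, Mdm2, Trp53inp1 and Bax, with F4KO bars left of WT bars, Epi in the upper row and organoids in the lower row, 1 library per bar. In Mdm2 the NM_010786.4 bar was lower and the NM_001288586.2 bar higher in F4KO in both rows, while the F4KO bar was the taller for each Bax transcript in both rows.

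Division over transcripts of this kind was frequent in these libraries. At least 1 transcript was called in 5 of the 9 members in Epi, where 54.4% of genes had one, and in 7 of 9 in organoids, where 37.2% of genes had one. Calls in both directions within a gene were found in 33% of genes with several transcripts in Epi and in 32.7% in organoids. For genes with 1 listed transcript the shares called were 29.6% in Epi and 8.24% in organoids. A transcript call of a member is therefore read against these shares and not against that of genes.

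Bax and Bbc3 are the death effectors among the 9. Bax forms pores in the outer mitochondrial membrane, and Bbc3 encodes PUMA, a BH3-only protein that frees Bax from its inhibitors. Bax (chr7:45461695-45466903, minus strand) had 472 reads in F4KO Epi and 359 in WT Epi, and 2437 reads in F4KO organoids and 2199 in WT organoids. F4KO was the higher library in both. The ratio was 1.62 in Epi (1.41 to 1.86) and 1.12 in organoids (1.05 to 1.18). In the authors' deposited table the log2 fold change was 0.69 (FDR 2.87e-11) in Epi, 0.32 above the median of all genes, and 0.16 (FDR 0.00191) in organoids, which missed the limit. NM_007527.3 carried 452 of the reads in F4KO Epi and 347 in WT Epi, and 2287 in F4KO organoids and 2129 in WT organoids. A predicted model, XM_006540584.4, had 19 reads in F4KO Epi and 11 in WT Epi, and 149 in F4KO organoids and 69 in WT organoids. Bax shares 192 exon bases with Gm45808, a gene on the same strand.

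Bbc3 (chr7:16308398-16318334, plus strand) had 108 reads in F4KO Epi and 85 in WT Epi, and 181 reads in F4KO organoids and 149 in WT organoids. Both ratios were above 1, at 1.56 in Epi (1.17 to 2.10) and 1.22 in organoids (0.980 to 1.53). The authors' deposited table gives FDR values of 0.00453 in Epi and 0.223 in organoids, neither past the limit. The fold change of Bbc3 was 0.34 above the median of all genes in Epi on the log2 scale. Its curated transcript NM_133234.2 had 14 reads in F4KO Epi and 22 in WT Epi, and 44 in F4KO organoids and 40 in WT organoids. The larger part stood on predicted models. XM_006539582.2 had 70 reads in F4KO Epi and 14 in WT Epi, and 101 in F4KO organoids and 64 in WT organoids. XM_006539580.3 went the other way, with 0 reads in F4KO Epi and 27 in WT Epi, and 0 in F4KO organoids and 27 in WT organoids. The remaining predicted models had at most 22 reads in a library and did not share a direction.

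Phlda3 (chr1:135766085-135769134, plus strand) encodes a pleckstrin-homology protein that competes with AKT at the membrane. It had 4 reads in F4KO Epi and 3 in WT Epi, against 716 reads in F4KO organoids and 782 in WT organoids. Phlda3 was thus next to undetected in Epi and well covered in organoids. It made up 0.0533% of the reads on the 9 genes in F4KO Epi and 0.0215% in WT Epi, against 4.58% in F4KO organoids and 4.65% in WT organoids. No difference between genotypes was detectable from so few Epi reads, where the ratio of 1.64 had an interval of 0.278 to 11.2. In organoids the ratio was 0.923 (0.833 to 1.02).

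Sesn2 (chr4:132492804-132510456, minus strand) encodes sestrin 2, a leucine sensor that restrains mTORC1 and is also induced by the stress factor ATF4. It had 91 reads in F4KO Epi and 148 in WT Epi, and 482 reads in F4KO organoids and 399 in WT organoids. F4KO was the lower library in Epi and the higher in organoids. The ratio was 0.756 in Epi (0.576 to 0.989) and 1.22 in organoids (1.06 to 1.39). Neither passed the limit, since the authors' deposited table gives 0.0648 in Epi and 0.0243 in organoids as the FDR. Relative to the median of all genes the Epi value was -0.78 on the log2 scale.

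Zmat3 (chr3:32334792-32365665, minus strand) encodes a zinc-finger protein that binds RNA and regulates splicing. It had 163 reads in F4KO Epi and 148 in WT Epi, and 453 reads in F4KO organoids and 445 in WT organoids. The organoid libraries were nearly equal, with a ratio of 1.03 (0.898 to 1.17). In Epi the ratio was 1.35 (1.08 to 1.70), which is 0.07 above the median of all genes on the log2 scale, and the authors' deposited table gives an FDR of 0.0153. The curated transcript NM_009517.2 had 130 reads in F4KO Epi and 96 in WT Epi, and 437 in F4KO organoids and 445 in WT organoids. For its Epi pair the authors' deposited table gives an FDR of 3.24e-04. A predicted model, XM_006535441.4, had 33 reads in F4KO Epi and 52 in WT Epi, and 15 in F4KO organoids and 0 in WT organoids. For that model the authors' deposited table gives an FDR of 0.353 in Epi and 1.07e-04 in organoids.

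**Figure D4:**
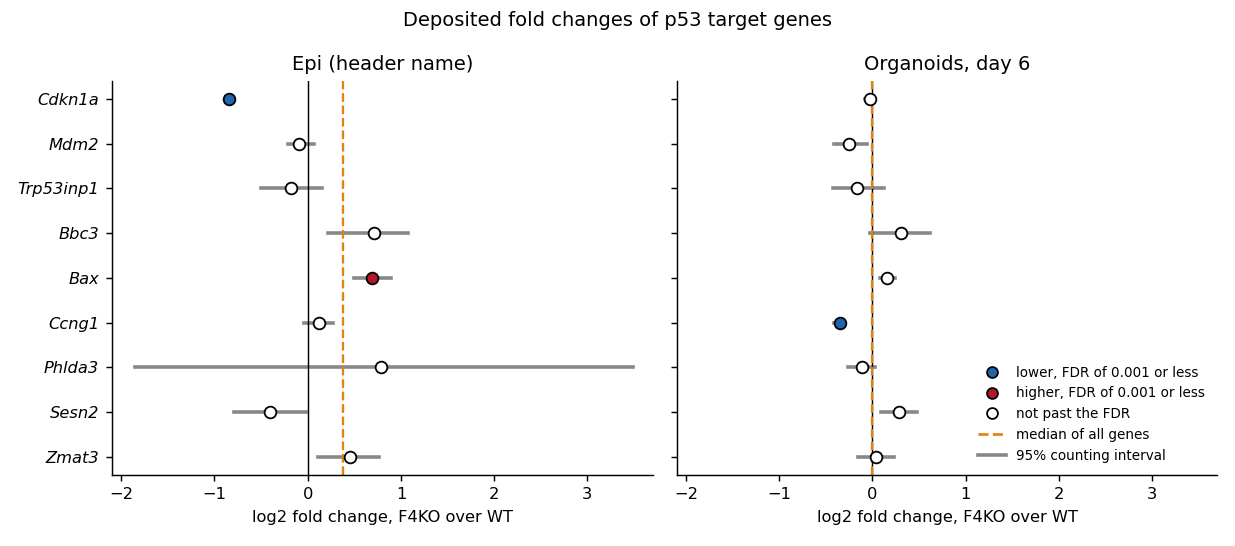
Deposited log2 fold change, F4KO over WT, of each member (points) with the 95% counting interval of its reads (bars), Epi on the left and organoids on the right; the dashed line is the median of all genes. Cdkn1a at -0.84 and Bax at 0.69 are the filled points in Epi, and Ccng1 at -0.35 is the filled point in organoids.

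Set against each other, the fold changes in Epi and organoids differed beyond counting error for 5 members. That of Cdkn1a was the largest of these: its Epi value was lower by a log2 difference of -0.81 with a counting interval of -0.88 to -0.74. The differences of Sesn2 (-0.69, -1.11 to -0.26), Bax (0.53, 0.32 to 0.75), Ccng1 (0.47, 0.30 to 0.63) and Zmat3 (0.42, 0.03 to 0.77) also lay outside counting error. The median of all genes was itself 0.38 in Epi. With the median of each comparison taken off, a choice made after seeing the data, Cdkn1a differed by -1.19, Sesn2 by -1.06, Bax by 0.16, Ccng1 by 0.09 and Zmat3 by 0.04. Centred in this way, 2 of the 9 had a counting interval clear of 0, Cdkn1a (-1.25 to -1.12) and Sesn2 (-1.49 to -0.64), while those of Bax (-0.06 to 0.37), Ccng1 (-0.08 to 0.25) and Zmat3 (-0.35 to 0.40) lay across it. Before centring, the differences of Mdm2, Trp53inp1, Bbc3 and Phlda3 had counting intervals across 0. With 1 library per arm none of these differences has a test.

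Of 41 other p53 targets in 3 lists, 11 were higher and 8 lower of 36 with a fold change in Epi, and 0 were higher and 2 lower of 37 in organoids. The shares called were 52.8% in Epi and 5.41% in organoids, beside 38.5% and 7.79% of all genes. The counts of this and every list below are to be read beside the shares of all genes by direction. Those were 30.6% higher and 7.92% lower in Epi, and 3.09% higher and 4.7% lower in organoids. The median log2 fold change in the authors' deposited table was 0.50 in Epi, 0.13 above that of all genes, and -0.04 in organoids.

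Among the arrest and repair targets 5 were higher and 3 lower of 13 in Epi, and 1 was lower in organoids. Sfn, which encodes 14-3-3 sigma, a G2 brake, had 4604 reads in F4KO Epi and 10026 in WT Epi, a ratio of 0.565 (0.545 to 0.585), and 2768 in F4KO organoids and 2907 in WT organoids. Btg2, an antiproliferative cofactor of mRNA deadenylation, had 1354 reads in F4KO Epi and 2666 in WT Epi, a ratio of 0.625 (0.585 to 0.667), and 888 in F4KO organoids and 904 in WT organoids. Sfn and Btg2 thus lay beside Cdkn1a, lower in Epi and within counting error in organoids. The DNA damage sensor subunit Ddb2 went the other way, with 113 reads in F4KO Epi and 68 in WT Epi and a ratio of 2.04 (1.50 to 2.80). The p53 phosphatase gene Ppm1d, with 82 reads in F4KO and 42 in WT, and Pidd1, with 88 in F4KO and 52 in WT, were higher in Epi too. Pcna, the replication clamp, was higher in Epi with 882 reads in F4KO and 714 in WT, and lower in organoids with 5523 in F4KO and 6645 in WT. In the authors' deposited table its log2 fold changes were 0.60 in Epi and -0.26 in organoids.

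Among the death targets 3 were higher and 3 lower of 9 in Epi, and none of 10 was called in organoids. Aen, a nuclease, was higher in Epi with 129 reads in F4KO and 72 in WT, and Siva1, a death-domain adaptor, with 41 in F4KO and 17 in WT. Pmaip1, which encodes the BH3-only protein NOXA, was lower in Epi with 821 reads in F4KO and 1286 in WT, and had 393 in F4KO organoids and 512 in WT organoids, where the deposited FDR missed the limit. The death receptor gene Fas was lower in Epi, at a log2 fold change of -0.39 in the authors' deposited table. Of the metabolic and remaining targets 3 were higher and 2 lower of 14 in Epi, and 1 was lower in organoids. Tigar, a fructose bisphosphatase, had 230 reads in F4KO Epi and 175 in WT Epi, and Fdxr, ferredoxin reductase, had 121 in F4KO Epi and 87 in WT Epi. Abhd4, a lipase of N-acyl phospholipids, was lower in Epi at -0.60, and the cytokine gene Gdf15 was lower in organoids at -0.38, both on a log2 scale from the authors' deposited table.

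Trp53, the gene of p53, had a log2 fold change of 0.80 (FDR 5.97e-17) in Epi and -0.01 (FDR 0.894) in organoids in the authors' deposited table. Of p53 and its regulators 9 were higher and 0 lower of 18 in Epi, and 0 were higher and 4 lower of 17 in organoids. The damage kinase gene Atm had 170 reads in F4KO Epi and 81 in WT Epi, a ratio of 2.58 (1.97 to 3.41), and 159 in F4KO organoids and 251 in WT organoids, a ratio of 0.639 (0.520 to 0.782). The related kinase gene Atr had 128 reads in F4KO Epi and 38 in WT Epi, and Chek2 had 123 in F4KO Epi and 62 in WT Epi. Chek1 was lower in organoids, with 220 reads in F4KO and 325 in WT. Mdm4, which binds p53 beside MDM2, was higher in Epi by 0.80 in the authors' deposited table and not called in organoids. Rpl5, a ribosomal protein that inhibits MDM2, was called in both, by 1.25 in Epi and -0.04 in organoids in the authors' deposited table, but has many near-identical copies in the genome and is uncertain.

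Among relatives of the members 4 were higher and 3 lower of 11 in Epi, and 0 higher and 1 lower in organoids. Ccng2, the cyclin G paralogue, had 1771 reads in F4KO Epi and 4491 in WT Epi, a ratio of 0.485 (0.459 to 0.513), and 191 in F4KO organoids and 227 in WT organoids, 0.848 (0.696 to 1.03). Ccng1 and Ccng2 thus differed in which comparison held their call. Phlda1, a relative of Phlda3, was lower in organoids with 1696 reads in F4KO and 2006 in WT, and had 592 in F4KO Epi and 733 in WT Epi. Phlda2 had 15 reads in F4KO Epi and 1 in WT Epi, a ratio of 18.5 with an interval of 2.84 to 777. Among the BCL2 family, to which Bax and Bbc3 belong, 3 were higher and 5 lower of 13 in Epi and none was called in organoids. Bmf, a BH3-only gene, had 219 reads in F4KO Epi and 83 in WT Epi, and Bok, a pore former like Bax, had 224 in F4KO Epi and 428 in WT Epi. In the authors' deposited table Bcl2l2, which encodes the survival protein BCL-w, was higher in Epi by 0.99.

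Of 8 cyclins and kinases held by p21, 6 were higher and 0 lower in Epi, and 0 were higher and 2 lower in organoids. Cdk2 had 202 reads in F4KO Epi and 94 in WT Epi, a ratio of 2.64 (2.06 to 3.41). In the authors' deposited table Cdk4 and Ccnd1 were higher in Epi by 1.22 and 1.18, and Ccnd2 by 0.75 in Epi against -0.50 in organoids. Cdk6 was higher in Epi with 153 reads in F4KO and 106 in WT, and lower in organoids at a log2 fold change of -0.27 in the authors' deposited table.

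All 12 mitotic genes that p21 represses through the DREAM complex were higher in Epi, and 6 of the 12 were lower and none higher in organoids. The median log2 fold change of the list in the authors' deposited table was 1.80 in Epi, 1.42 above that of all genes, and -0.30 in organoids. Ccna2 had 729 reads in F4KO Epi and 226 in WT Epi, and 2667 in F4KO organoids and 3292 in WT organoids. Cdk1 had 251 reads in F4KO Epi and 89 in WT Epi, and 2490 in F4KO organoids and 3186 in WT organoids. The largest Epi fold change of the list was that of Cdc25c, with 55 reads in F4KO and 12 in WT. In organoids Top2a and Bub1 had the lowest fold changes, -0.60 and -0.58 in the authors' deposited table. Stem cell markers went the same way as these genes in Epi, with 2499 reads in F4KO and 1056 in WT over the 4 markers, and in organoids 2 of the 4 were lower and 1 higher. In organoids, where mitotic genes were lower, 4 of 6 enterocyte and 4 of 4 enteroendocrine markers were higher. The part of these markers in the values of Cdkn1a and of the mitotic genes was not tested.

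The integrated stress response list, which holds Sesn2, had 4 genes higher and 2 lower of 9 in Epi and 3 higher and 0 lower of 9 in organoids. In organoids all 9 fold changes were above 0, with a median of 0.23 in the authors' deposited table. Trib3, a pseudokinase induced with ATF4, had 122 reads in F4KO Epi and 296 in WT Epi, and 1468 in F4KO organoids and 1089 in WT organoids. Its ratios were 0.507 in Epi (0.407 to 0.628) and 1.36 in organoids (1.26 to 1.47), in the same directions as those of Sesn2. Atf3 had 847 reads in F4KO Epi and 2939 in WT Epi, a ratio of 0.355 (0.328 to 0.383), and 255 in F4KO organoids and 224 in WT organoids. Chac1 and Psat1 went the other way in Epi, with 60 reads in F4KO and 19 in WT for Chac1 and 86 in F4KO and 41 in WT for Psat1. Asns was higher in Epi by 1.54 in the authors' deposited table.

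**Figure D5:**
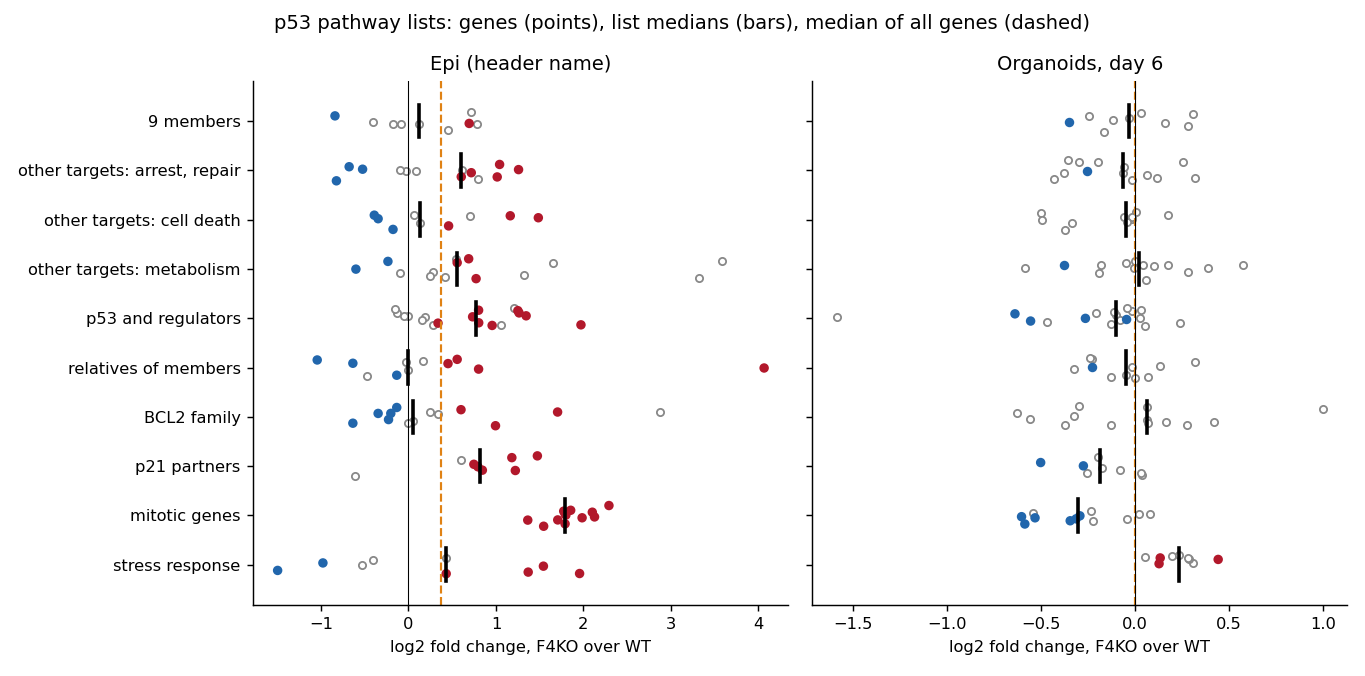
Deposited log2 fold change, F4KO over WT, of every listed gene (points; red higher and blue lower at a deposited FDR of 0.001 or less, open not past it), by list, Epi on the left and organoids on the right, with list medians as bars and the median of all genes as a dashed line. The 12 mitotic genes all lie above 1 in Epi, and the 9 members lie on both sides of the dashed line in both panels.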

How the data were processed

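The samples were 2 libraries of day 6 mouse intestinal organoids, 1 per genotype, made by SMARTER mRNA-seq from 1.5 ug of total RNA, per the labels' protocols. The authors deposited a gene table and a transcript table with a log2 fold change, a p-value and an FDR (a score here, since 767 organoid values exceed 1, up to 1.02), per the file headers, which name the test possiondis. The builds GRCm38 and mm10 come from the submitters' processing notes. Aligner, counter and annotation: not given in the sources used here. Planned levels per library were not found in these tables and none was used.

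Read numbers were recovered in Python 3.11.15 with scipy 1.17.1, taking each deposited p-value as a two-sided Audic-Claverie probability of 2 whole read numbers and the ratio of library totals. Pairs under 40 reads gave 103 of 103 common p-values of genes in Epi and 81 of 81 in organoids, and 189 of 191 of transcripts in Epi and 185 of 185 in organoids, and none of these after a shift of 0.03%. The ratio of library totals was itself fitted to these common p-values, so their match does not check that ratio independently. For genes with 1 transcript the gene and transcript p-values both had to fit. For members with several, transcript reads had to add up to the gene within 2 reads, which settled genes whose own p-value left several pairs (in organoids 5 for Cdkn1a, 4 for Zmat3 and 2 for Trp53inp1, in Epi 2 for Mdm2) and transcripts with up to 26. Other genes needed 1 fitting pair, from the gene p-value alone up to 600 reads. With p-values shifted by 0.03%, 2 of 195 genes (1.03%) still fitted; over 20 shifts Ccng1 in organoids fitted in 2 and Cdkn1a in Epi in 1, and sums over transcripts had no such check. On pairs simulated with the same formula and fitted ratio, 146 of 146 and 37 of 37 single fits were right. This checks the search and not whether the deposited p-values follow the formula, and sums over transcripts were not simulated. Pairs were searched only within a window around the deposited log2 fold change, at most 0.1 for genes and 0.02 for transcripts, wider for few reads. Recovered ratios and deposited log2 fold changes of members differed by at most 0.07. That gap is limited by the window, so it does not check the recovered reads. Intervals are exact (95%); those of differences are log-normal, and exact for Phlda3, and cover counting error only. Library totals themselves are not given.

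The members and gene lists were chosen with earlier results of these data known. All 9 members are named, and from each of the 9 lists the genes at an FDR of 0.001 or less with a log2 fold change of at least 1, and the 2 with the largest change each way in each comparison, gave 49 names, of which the text gives a part, picked with their values known. Alternatives were an FDR of 0.05, log2 limits of 1 and 0.5, the transcript table, reads for fold changes, and centring on the median.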

Additional observations from a re-analysis of the deposited data

Results flagged for a closer look

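A value is given here where the deposited fold change of a gene was above 0 in one comparison and below 0 in the other. Each is the log2 fold change in Epi minus that in organoids, and with 1 library per arm the difference was not tested. Opposite signs were found in 3 of 9 members and in 47.2% of the 14962 genes with both fold changes. Among list genes, for which both comparisons also had to pass a deposited FDR of 0.001, 12 met it, as did 3.06% of the 14962. Some genes stand in several lists and the share of list genes was not worked out. The count of 12 is therefore not read as a departure from that share. Among members the difference was 0.47 for Ccng1, 0.90 for Phlda3, which had 4 reads in F4KO Epi and 3 in WT Epi, and -0.69 for Sesn2. None of these 3 passed the limit in both comparisons: the FDR in the authors' deposited table was 0.220 in Epi for Ccng1, 0.612 in Epi and 0.333 in organoids for Phlda3, and 0.0648 in Epi and 0.0243 in organoids for Sesn2. Relative to the median of all genes the Epi value of Ccng1 was -0.26, below 0 as in organoids. Among mitotic genes the difference was 2.69 for Bub1, 2.38 for Top2a, 2.28 for Ccna2, 2.24 for Mki67, 2.13 for Cdk1 and 2.11 for Ccnb1. Among the partners of p21 it was 1.25 for Ccnd2 and 1.12 for Cdk6. It was 1.98 for Atm, 0.86 for Pcna, 1.29 for Rpl5, whose many copies make it uncertain, and -1.42 for Trib3. The median log2 fold change of all genes, 0.38 in Epi and 0 in organoids, was not taken off these values.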

How the results depend on the processing

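At a deposited FDR of 0.05, 4 members passed in Epi (3 higher, 1 lower) and 4 in organoids (2 higher, 2 lower), where 53.6% and 17.7% of all genes did. With a log2 fold change of at least 1 as well as the FDR of 0.001, 0 passed in either, and with one of at least 0.5 the organoid count was 0 while the Epi count of 2 was unchanged. By transcripts, 5 members passed in Epi (4 with a transcript higher, 3 with one lower) and 7 in organoids (5 with a transcript higher, 5 with one lower). Minus the median of all genes, the Epi median of the members turned to -0.26, as did the Epi value of Ccng1, -0.26, and, by a choice made after seeing the data, the difference of Mdm2, -0.22. The other 17 member values and 8 differences kept their direction. The organoid values among them could not move, because the median of all genes is 0 in organoids. The transcript with the smallest p-value turned the organoid direction of Mdm2 (7.41), Trp53inp1 (7.31) and Bbc3 (-6.69), each with 0 reads in 1 library, so these log2 values depend on how zeros were handled. It left 9 member values with their call and made 6 pass. The log2 ratio of reads kept the direction of all 18 (it carries no FDR). Reads were searched only near the deposited fold change, so this is not a separate check. Leaving out a replicate was impossible with 1 library per genotype, and the pseudocount and low-level filter were not run because no levels per library were used. No paired analysis was possible because each genotype had 1 library. Phlda3 had 4 reads in F4KO Epi and 3 in WT Epi, too few to give a direction.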
